A study of Homo sapiens with 6 samples.

Results

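The CCR4-NOT deadenylase subunits were examined in RNA-seq of D391N-expressing and control HEK293T-Rex cells. The members were the 10 genes CNOT1, CNOT2, CNOT3, CNOT6, CNOT6L, CNOT7, CNOT8, CNOT9, CNOT10 and CNOT11, taken by symbol, and every transcript listed under their gene identifiers. They made up 10 of 63190 genes and 158 of 207167 transcripts in the expression table. HEK293T-Rex cells derive from human embryonic kidney and express the tetracycline repressor, which lets doxycycline induce an integrated construct. The D391N group held 3 libraries of cells with an integrated FLAG-tagged DIS3L2 whose catalytic site carries the D391N substitution. The control group held 3 libraries of HEK293T-Rex cells. The labels name the line HEK293 for both groups, and doxycycline treatment of the controls is not stated. Each condition came from a line of its own, so construct and line cannot be told apart, and nothing in the labels says that the libraries came from separate cultures. The p-values therefore measure only the spread between these libraries, which may be technical.

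CCR4-NOT is the main cytoplasmic deadenylase of human cells and shortens the poly(A) tails of mRNAs. CNOT1 is the scaffold on which the other subunits assemble, and the nuclease activity comes from a CAF1-type subunit (CNOT7 or its paralog CNOT8) together with a CCR4-type subunit (CNOT6 or its paralog CNOT6L). mRNAs with short poly(A) tails can be uridylated, and DIS3L2 is a 3′ to 5′ exonuclease that degrades RNAs with U tails, so deadenylation acts upstream of the nuclease that was altered in these cells.

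Levels were read as RPKM (reads per length of transcript and size of library), and gene levels are sums of RPKM over the transcripts of a gene. Values of single libraries are given in the order of replicates 1, 2 and 3, for D391N and then for control. DIS3L2 itself, which the construct adds to, had 369, 467 and 512 RPKM in the D391N libraries against 11.8, 12.9 and 14.6 RPKM in the controls (log2 fold change 5.08, limma adjusted p = 0.000268), and the groups did not overlap. Relative to control replicate 2, depth was 0.615 to 0.802 in the D391N libraries and 0.671 to 1 in the controls. Of 8 genes chosen as marks of HEK293, 7 had a mean of at least 1 RPKM. The summed level of all 8 was 323 to 385 RPKM in D391N against 459 to 503 RPKM in control libraries. KRT8 (means of 107 and 172 RPKM) and VIM (121 and 162 RPKM) made up most of that gap, while LIN28B had the opposite difference (30.2 and 21.1 RPKM), and none of the 3 passed adjustment. Of 7 genes for leukocytes, endothelium, hepatocytes and fibroblasts that could be matched, 3 had a mean of at least 1 RPKM, with a highest mean of 3.30 RPKM. The summed level of all 7 was 8.21 to 13.3 RPKM in D391N and 7.81 to 8.40 RPKM in control libraries. The part of these shifts in the results that follow was not tested.

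At gene level none of the 10 subunits passed an adjusted p of 0.05 in limma. Across all genes with a mean of at least 1 RPKM, 0.14% passed. At an unadjusted p under 0.05 stood 2 of the 10 members, CNOT7 and CNOT6L, beside 22.7% of all genes. Every D391N library was above every control library for 3 members, CNOT1, CNOT6L and CNOT7, beside 10.5% of all genes. For CNOT6L and CNOT7 this did not hold without ENST00000515441 and CNOT7-212, which are described below. No member had every D391N library below every control, which held for 20.7% of all genes. The fitted log2 fold change was positive for 6 members and negative for 4, with a median of 0.16 against -0.090 over all genes. In bulk RNA, fewer cells with a transcript and less of it per cell cannot be told apart.

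**Figure D1:**
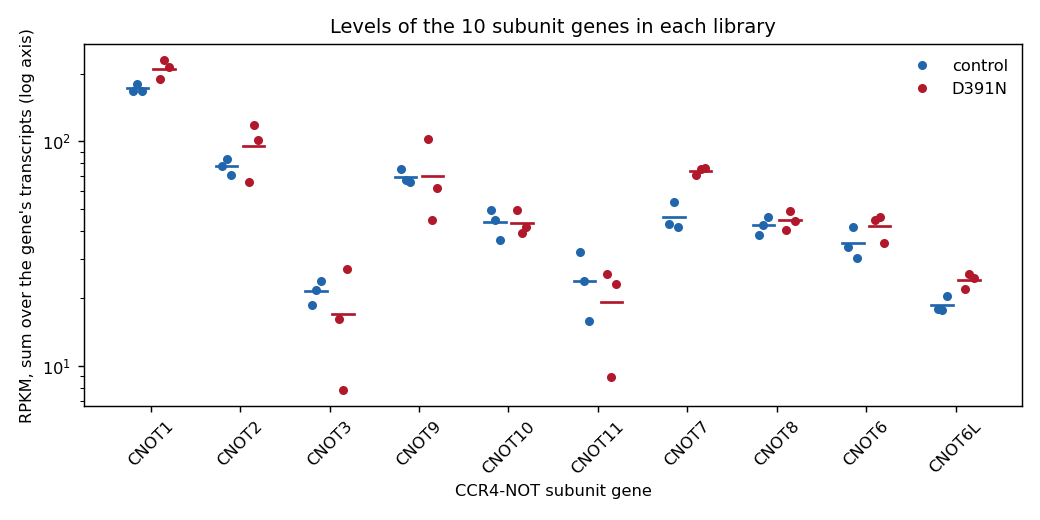
Gene sums of RPKM (log axis) for the 10 subunit genes, with 1 point per library and a short line at the mean of the 3 libraries of each condition. CNOT1 was the highest gene in every library, and CNOT7 is the gene with the widest gap between conditions, at 70.9 to 75.8 RPKM in D391N and 41.5 to 53.9 RPKM in control libraries.

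In order of mean level over the 6 libraries the subunits ran from CNOT1 at 191 RPKM through CNOT2 at 86.3, CNOT9 at 69.7, CNOT7 at 60.1, CNOT10 at 43.5, CNOT8 at 43.4, CNOT6 at 38.6, CNOT11 at 21.7 and CNOT6L at 21.4 to CNOT3 at 19.2 RPKM. These levels are per length, but each is a sum over isoforms in which short transcripts weigh as much as long ones. The order therefore holds for this measure only. In CNOT9, for example, the 581-nt CNOT9-204 took 46.8% of the sum. CNOT1 was above CNOT2 in 6 of 6 libraries, and CNOT6 was above CNOT11 in 6 of 6. The order of the other neighbours was less firm. CNOT2 exceeded CNOT9 in 5 libraries, CNOT9 exceeded CNOT7 in 4, CNOT7 exceeded CNOT10 in 5 and CNOT8 exceeded CNOT6 in 5. CNOT10 and CNOT8 exchanged places between libraries, as did CNOT11, CNOT6L and CNOT3 at the low end.

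CNOT1 (ENSG00000125107; chromosome 16, 58519951 to 58629826 of GRCh38.p14) was at 189, 229 and 213 RPKM in D391N and 168, 179 and 168 RPKM in control libraries. All D391N libraries lay above all controls, with the lowest D391N library close to the highest control. The means were 211 ± 20.1 and 172 ± 6.27 RPKM (SD, n = 3 each), with a log2 fold change of 0.29 ± 0.16 (SE) that did not pass (limma adjusted p = 0.311). The gene level was spread over several isoforms. CNOT1-202, a shorter coding transcript, took 19.1% of the gene sum, CNOT1-203 took 18.9%, the full-length reference transcript CNOT1-201 took 15.3% and CNOT1-212 took 10.9%. The reference transcript, with 2376 codons, was at 24.4, 31.7 and 33.1 RPKM in D391N and 29.4, 27.3 and 28.4 RPKM in control libraries. Its D391N values enclosed the control values, and its log2 fold change was 0.05 (limma adjusted p = 0.921). CNOT1-202 was at 28.3, 47.6 and 47.8 RPKM in D391N and 31.2, 34.0 and 31.8 RPKM in control libraries, again with overlap (log2 fold change 0.31, limma adjusted p = 0.589).

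The lowest adjusted p of any member transcript belonged to CNOT1-218 (ENST00000569732), a 906-nt transcript of CNOT1 that was chosen for description after its values were seen and has no annotated coding frame. It was at 8.75, 35.3 and 31.6 RPKM in D391N and 0.904, 1.66 and 1.15 RPKM in control libraries. Each D391N library was well above each control, and D391N replicate 1 was the lowest of its group. The posterior variance of each estimate was converted to the number of reads whose counting error would be as large, called equivalent reads here. These were 12.5 to 129 in D391N libraries and 0.0784 to 1.12 in controls, under the level of 3 reads in each control. Set against the 3-read level of the controls (the RPKM that 3 equivalent reads would give, averaged over the 3 libraries), the D391N mean was at least 6.19-fold higher. With each library left out in turn this bound ran from 4.77-fold without control replicate 1 to 8.21-fold without D391N replicate 1. The fitted log2 fold change of 4.05 ± 0.57 (SE), which depends on the pseudocount at such control levels, gave a limma adjusted p of 0.076. Its mean share of the CNOT1 sum was 11.6% in D391N and 0.714% in control libraries (limma adjusted p = 0.0886 for the share). Without D391N replicate 1 the adjusted p was 0.0039 for the level and 0.011 for the share. Those fits called 9.07% of all transcripts and 7.52% of all shares. With library weights in limma the adjusted p was 0.037 for the share and 0.058 for the level.

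CNOT1-218 joins its exon 4 to its exon 5 across an exon of 79 nt, a length that is not a multiple of 3, which CNOT1-201 keeps as exon 22 after exon 21. The junctions are shown because only 47 of the 857 read-length windows of 50 bases in CNOT1-218 occur in no other transcript of the table, so its level rests on few distinguishing positions. Both lines start with the same 30 bases of the upstream exon in lower case, and capitals mark the 30 bases that follow the junction, all coding in CNOT1-201. They were read from GENCODE transcript sequences matched by transcript identifier.
CNOT1-218: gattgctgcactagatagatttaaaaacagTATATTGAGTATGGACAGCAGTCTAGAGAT
CNOT1-201: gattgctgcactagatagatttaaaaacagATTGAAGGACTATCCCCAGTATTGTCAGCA

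In the opposite direction, CNOT1-209 (ENST00000566240), annotated as a substrate of nonsense-mediated decay and also chosen after its values were seen, was at 1.70, 0.123 and 0.596 RPKM in D391N and 2.72, 8.23 and 9.47 RPKM in control libraries. The groups did not overlap, on 0.0535 to 4.65 equivalent reads in D391N and 3.33 to 15.6 in control libraries. The fitted difference of -3.22 on the log2 scale, which depends on the pseudocount at such levels, did not pass (limma adjusted p = 0.162). It passed without D391N replicate 1 (adjusted p = 0.031), in a fit that called 9.07% of all transcripts.

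CNOT2 and CNOT3 form the NOT module, which docks on the C-terminal part of CNOT1. CNOT2 (ENSG00000111596; chromosome 12, 70243018 to 70354993) was at 66.2, 118 and 102 RPKM in D391N and 77.6, 83.2 and 71.1 RPKM in control libraries. D391N replicate 1 was the lowest of the 6 libraries and D391N replicates 2 and 3 were the highest, so the groups overlapped. The log2 fold change was 0.26 with a 95% interval of -0.30 to 0.82 (limma adjusted p = 0.538). CNOT2 had more transcripts than any other member, 43 in all with 27 tested, and only CNOT2-202 took a mean share over 10% (10.3%).

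CNOT2-202, with the 540 codons of the full protein, was at 8.88, 3.18 and 9.45 RPKM in D391N and 10.6, 9.12 and 8.60 RPKM in control libraries. D391N replicate 2 was far below the other 5 libraries, and the difference of -0.54 on the log2 scale did not pass (limma adjusted p = 0.551). CNOT2-202 had 3.54 to 223 equivalent reads in D391N and 160 to 363 in control libraries. Only 164 of its 3103 windows occurred in no other transcript. In D391N replicate 2 CNOT2-234 (ENST00000551873), a 677-nt coding fragment chosen after its values were seen, was at its highest. CNOT2-234 was at 1.69, 38.3 and 13.4 RPKM in D391N and 0.367, 0.790 and 0.952 RPKM in control libraries. All D391N libraries were above all controls, but the D391N libraries themselves were far apart, and replicate 1 had only 0.474 equivalent reads. The controls were all under the 3-read level, and the D391N mean was at least 5.64-fold above it, a bound that was 2.40-fold without D391N replicate 2 (fitted log2 fold change 3.68, limma adjusted p = 0.185). Its share of the CNOT2 sum was 16.1% in D391N and 0.920% in control libraries (limma adjusted p = 0.190). CNOT2-217, a transcript without a defined coding frame and likewise chosen after its values were seen, had lower values in D391N, at 1.85, 0.606 and 0.230 RPKM in D391N and 5.30, 7.02 and 2.41 RPKM in control libraries (log2 difference -2.58, limma adjusted p = 0.177). It had 0.0245 to 1.59 equivalent reads in D391N and 2.41 to 15.3 in control libraries, so the fitted difference depends on the pseudocount. Without D391N replicate 1, CNOT2-234 passed for level (adjusted p = 0.012) and share (adjusted p = 0.018), and CNOT2-217 passed for level (adjusted p = 0.029). Those fits called 9.07% of all transcripts and 7.52% of all shares.

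CNOT3 (ENSG00000088038; chromosome 19, 54137762 to 54155681) was at 16.2, 7.86 and 26.9 RPKM in D391N and 18.7, 21.9 and 23.9 RPKM in control libraries. The D391N libraries held both the lowest and the highest value. The log2 fold change was -0.50 with a 95% interval of -1.50 to 0.50 (limma adjusted p = 0.508). Of its 10 transcripts only 2 were tested, CNOT3-201 with a mean share of 62.4% and CNOT3-203 with 31.3%.

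Both CNOT3 isoforms are coding and differ, at the start of exon 8, by 3 bases, and CNOT3-203 is annotated as a shorter transcript with an incomplete coding end (1640 against 2818 nt). The junction is shown because the isoforms differ there within coding sequence that both otherwise share. The sequences are GENCODE transcript sequences across the junction of exons 7 and 8, and capitals mark the bases that CNOT3-203 has and CNOT3-201 lacks.
CNOT3-203: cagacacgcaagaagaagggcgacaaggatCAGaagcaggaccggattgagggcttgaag
CNOT3-201: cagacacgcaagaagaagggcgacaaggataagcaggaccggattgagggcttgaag

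CNOT3-203 (ENST00000440571), with the additional CAG, was at 6.93, 0.582 and 1.30 RPKM in D391N and 7.10, 10.8 and 10.9 RPKM in control libraries. D391N replicate 1 lay just below the lowest control, and D391N replicates 2 and 3 lay far below it. CNOT3-201 was at 8.34, 6.27 and 24.4 RPKM in D391N and 10.7, 9.75 and 12.1 RPKM in control libraries, with D391N values on both sides of the controls. The log2 fold changes were -2.33 (limma adjusted p = 0.228) and 0.0067 (limma adjusted p = 0.996). The first rests on few reads in D391N, with 0.233 to 13.2 equivalent reads for CNOT3-203 against 49.2 to 92.1 in control libraries. CNOT3-203 made up 18.3% of the CNOT3 sum in D391N and 44.3% in control libraries, and CNOT3-201 made up 74.0% and 50.8%. Neither share passed (limma adjusted p = 0.292 and 0.320), and both passed without D391N replicate 1 (adjusted p = 0.013 and 0.031), in a fit that called 7.52% of all shares. CNOT3-203 had 49 windows found in no other transcript of the table, and CNOT3-201 had none.

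CNOT9 binds TNRC6 and other recruiting proteins, and CNOT10 and CNOT11 form a module at the N-terminal part of CNOT1. CNOT9 (ENSG00000144580; chromosome 2, 218568839 to 218597080) was at 103, 44.5 and 62.3 RPKM in D391N and 75.7, 67.1 and 65.8 RPKM in control libraries. D391N replicate 1 was the highest and replicate 2 the lowest of the 6 (log2 fold change -0.08, 95% interval -0.79 to 0.64, limma adjusted p = 0.905). Its most abundant transcript by RPKM was CNOT9-204, annotated as a substrate of nonsense-mediated decay, with 46.8% of the gene sum, followed by the coding CNOT9-202 with 27.6% and ENST00000542068, which has no name in the annotation used, with 14.8%.

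CNOT9-204 was at 66.7, 22.8 and 24.2 RPKM in D391N and 31.9, 24.8 and 31.0 RPKM in control libraries, and in D391N replicate 1 it made up most of the high gene value (log2 fold change 0.20, limma adjusted p = 0.846). CNOT9-202 was at 19.1, 5.26 and 20.3 RPKM in D391N and 26.7, 24.9 and 19.8 RPKM in control libraries, and the low value of D391N replicate 2 matched the low gene value of that library. The reference transcript CNOT9-201, with 299 codons, was low throughout, at 1.02, 0.486 and 0.488 RPKM in D391N and 2.09, 1.19 and 1.55 RPKM in control libraries, without overlap. It was chosen for description after its values were seen, and its log2 difference of -1.20 did not pass (limma adjusted p = 0.253).

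CNOT10 (ENSG00000182973; chromosome 3, 32685188 to 32773875) was at 49.8, 39.0 and 41.5 RPKM in D391N and 49.7, 44.7 and 36.5 RPKM in control libraries. The means of 43.4 ± 5.64 and 43.6 ± 6.68 RPKM (SD, n = 3 each) gave a log2 difference of -0.0032 with a 95% interval of -0.42 to 0.42 (limma adjusted p = 0.994). The coding CNOT10-202 took 19.0% of the sum and was at 7.38, 8.69 and 10.7 RPKM in D391N and 8.87, 6.64 and 6.74 RPKM in control libraries, with overlap (log2 fold change 0.26, limma adjusted p = 0.625). CNOT10-216, CNOT10-217 and CNOT10-218, none with a coding frame, took 10.3% to 10.9% each. CNOT10-217 and CNOT10-218 had no read window of their own, and each had under 1 equivalent read in every library.

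CNOT11 (ENSG00000158435; chromosome 2, 101252886 to 101270316) was at 25.8, 8.96 and 23.3 RPKM in D391N and 32.1, 23.9 and 15.8 RPKM in control libraries. D391N replicate 2 was the lowest library and the groups overlapped (log2 fold change -0.39, 95% interval -1.46 to 0.68, limma adjusted p = 0.642). Without D391N replicate 2 the log2 fold change was 0.09. Its 3 transcripts were the coding CNOT11-201 with 65.3% of the sum, CNOT11-202 with 19.5% and CNOT11-203, a retained intron, with 15.2%. CNOT11-201 was at 13.9, 6.21 and 11.8 RPKM in D391N and 28.4, 15.8 and 10.1 RPKM in control libraries. The lowest control lay among the D391N values (log2 fold change -0.71, limma adjusted p = 0.458).

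Of the nuclease subunits, CNOT7 had the largest log2 fold change of the 10 members. CNOT7 (ENSG00000198791; chromosome 8, 17224966 to 17246857), a CAF1-type nuclease, was at 70.9, 75.6 and 75.8 RPKM in D391N and 43.1, 53.9 and 41.5 RPKM in control libraries. The D391N libraries lay close together and all above the highest control. The means were 74.1 ± 2.75 and 46.2 ± 6.77 RPKM (SD, n = 3 each), and the log2 fold change was 0.69 ± 0.15 (SE) with a 95% interval of 0.33 to 1.06. It did not pass adjustment over all genes (limma unadjusted p = 0.0030, adjusted p = 0.098). Without D391N replicate 1 the log2 fold change was 0.72 and the adjusted p was 0.047, in a fit that called 10.9% of all genes, and without any other library it was 0.134 to 0.303. Part of the gene sum was the short fragment CNOT7-212, described below, with 0.401 to 75.8 equivalent reads in D391N and at most 0.314 in controls. It took 2.30%, 29.9% and 23.2% of the sum in D391N and 0.907%, 0.254% and 1.88% in control libraries. In D391N replicate 2 the fragment made up 22.6 of 75.6 RPKM, and in control replicate 2 it made up 0.137 of 53.9 RPKM. Without it D391N replicate 2 was just below control replicate 2, so the groups overlapped.

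The gap between conditions was not seen in every isoform of CNOT7. The 4 with a mean share of at least 10% were CNOT7-211 with 25.0%, the reference transcript CNOT7-201 with 23.3%, CNOT7-206 with 14.2% and CNOT7-203 with 10.3%. CNOT7-201, of 6890 nt with 285 codons, was at 20.2, 8.48 and 12.9 RPKM in D391N and 17.7, 12.8 and 7.48 RPKM in control libraries. Each condition spanned more than 2-fold and the groups overlapped (log2 fold change 0.13, limma adjusted p = 0.902). CNOT7-201 had 5649 windows of its own and at least 1013 equivalent reads in every library, so this spread was present at high read numbers.

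CNOT7-211 (ENST00000523917), of 1885 nt with 244 codons, was at 18.0, 21.6 and 22.2 RPKM in D391N and 10.01, 12.3 and 8.61 RPKM in control libraries. All 3 D391N libraries were above all controls, on 391.4 to 557 equivalent reads against 158 to 346, and 772 of its windows occurred in no other transcript. The log2 fold change was 0.998 ± 0.24 (SE, limma adjusted p = 0.153). Of the 10 member transcripts with every D391N library above every control, it had the most equivalent reads.

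CNOT7-206, annotated as a substrate of nonsense-mediated decay, was at 12.6, 11.8 and 10.6 RPKM in D391N and 2.19, 7.05 and 8.29 RPKM in control libraries, also without overlap (log2 fold change 1.18, limma adjusted p = 0.287). CNOT7-203, a 426-nt coding fragment, was at 4.67, 1.49 and 4.25 RPKM in D391N and 5.87, 9.47 and 6.74 RPKM in control libraries, with every D391N library below every control (log2 difference -1.19, limma adjusted p = 0.266). It had 0.863 to 7.42 equivalent reads in D391N and 16.5 to 48.0 in control libraries. CNOT7-212 (ENST00000524358), a 700-nt coding fragment chosen after its values were seen, was at 1.63, 22.6 and 17.6 RPKM in D391N and 0.391, 0.137 and 0.781 RPKM in control libraries. Its D391N replicate 1 stood near the controls, with 0.401 equivalent reads, while D391N replicates 2 and 3 stood far above them. The D391N mean was at least 8.18-fold above the 3-read level of the controls (fitted log2 fold change 4.24, limma adjusted p = 0.150). With each library left out in turn this bound ran from 5.64-fold without D391N replicate 2 to 13.3-fold without control replicate 3. Its share of the CNOT7 sum was 18.5% in D391N and 1.01% in control libraries (limma adjusted p = 0.211). Without D391N replicate 1 it passed for level (adjusted p = 0.010) and share (adjusted p = 0.021). Those fits called 9.07% of all transcripts and 7.52% of all shares. Of the windows of CNOT7, 1.57% also occur in transcripts of other genes.

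**Figure D2:**
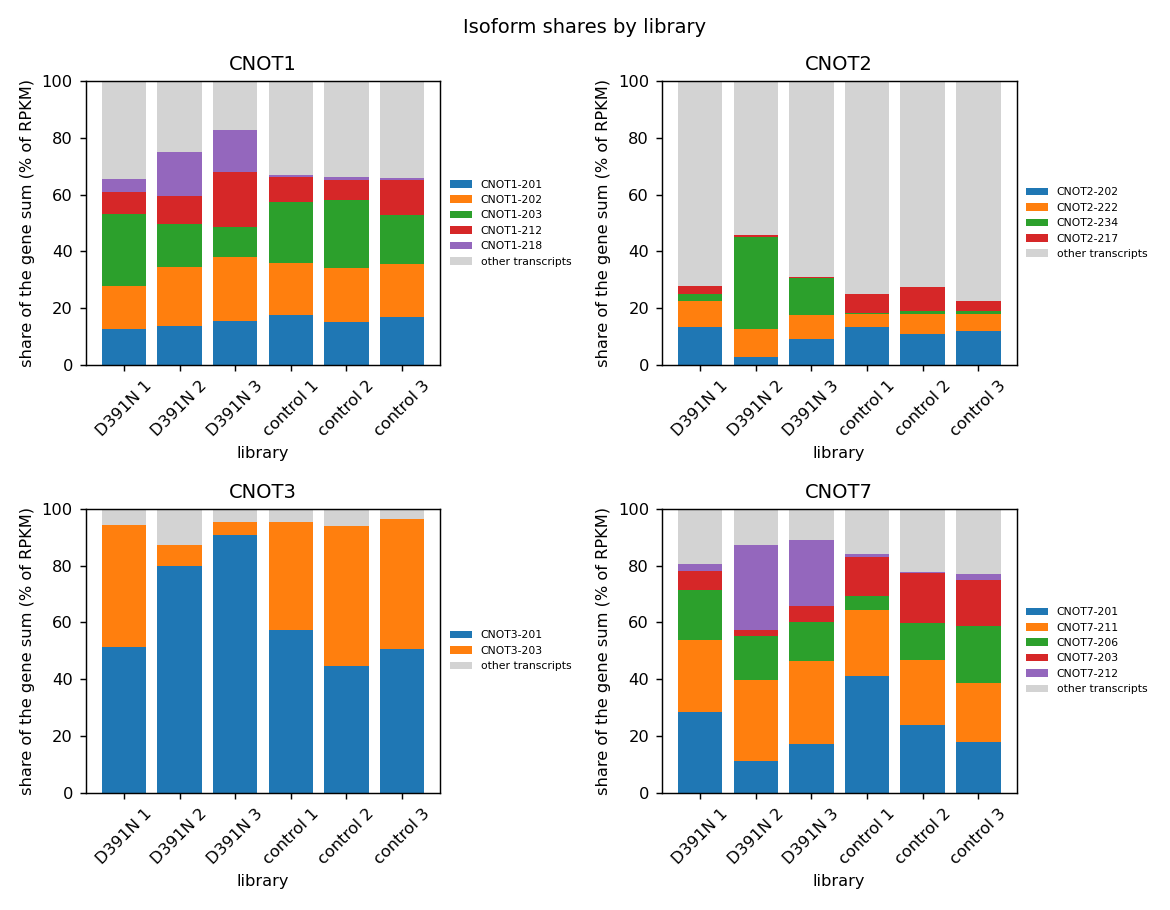
Share of the gene sum of RPKM (%) taken by named isoforms of CNOT1, CNOT2, CNOT3 and CNOT7 in each of the 6 libraries, with the remaining transcripts in grey. CNOT1-218, CNOT2-234 and CNOT7-212 are thin in the 3 controls, wider or equally thin in D391N replicate 1 and widest in D391N replicates 2 and 3, and CNOT3-203 is narrow in D391N replicates 2 and 3.

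CNOT8 (ENSG00000155508; chromosome 5, 154858249 to 154876792), the other CAF1-type nuclease, was at 40.5, 48.9 and 44.1 RPKM in D391N and 38.4, 42.4 and 46.0 RPKM in control libraries. The groups overlapped closely (log2 fold change 0.07, 95% interval -0.27 to 0.42, limma adjusted p = 0.795). No isoform dominated, with CNOT8-219 at 16.4% of the sum, CNOT8-212 at 16.3% and CNOT8-217 at 12.4%. CNOT8-219, annotated as a substrate of nonsense-mediated decay, was at 8.93, 2.42 and 5.87 RPKM in D391N and 7.96, 6.33 and 10.4 RPKM in control libraries, with overlap (log2 difference -0.67, limma adjusted p = 0.503). CNOT8-212, a 648-nt coding fragment, was highest in D391N replicate 2 at 17.6 RPKM, and the other 5 libraries held 2.90 to 8.10 RPKM. The reference transcript CNOT8-201 took 5.76% and had no read window of its own.

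CNOT6 (ENSG00000113300; chromosome 5, 180494379 to 180578358), a CCR4-type nuclease, was at 44.6, 46.0 and 35.2 RPKM in D391N and 34.1, 41.7 and 30.2 RPKM in control libraries. The lowest D391N library lay below the highest control (log2 fold change 0.25, 95% interval -0.19 to 0.69, limma adjusted p = 0.448). Its reference transcript CNOT6-201 took 31.7% of the sum and was at 15.5, 6.70 and 14.6 RPKM in D391N and 13.0, 13.9 and 8.51 RPKM in control libraries (log2 difference -0.0090, limma adjusted p = 0.994). CNOT6-204 took 26.8%, CNOT6-203 took 20.2% and CNOT6-206 took 12.5%.

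CNOT6L (ENSG00000138767; chromosome 4, 77713387 to 77820269), its paralog, was at 21.9, 25.8 and 24.6 RPKM in D391N and 18.0, 17.7 and 20.5 RPKM in control libraries. The groups did not overlap. The means were 24.1 ± 1.997 and 18.8 ± 1.498 RPKM (SD, n = 3 each), with a log2 fold change of 0.36 ± 0.14 (SE, limma unadjusted p = 0.038, adjusted p = 0.197). The long coding transcript showed no such gap. CNOT6L-201, of 8772 nt with 31.1% of the sum, was at 6.35, 5.87 and 7.30 RPKM in D391N and 6.65, 6.38 and 6.61 RPKM in control libraries, on at least 671 equivalent reads each (log2 difference -0.01, 95% interval -0.55 to 0.52). ENST00000515441, without a name in the annotation used and with 11.99% of the sum, was at 3.52, 3.22 and 6.87 RPKM in D391N and 0.829, 0.285 and 1.92 RPKM in control libraries. It took 16.0%, 12.5% and 27.9% of the gene sum in D391N and 4.60%, 1.61% and 9.37% in control libraries. In D391N replicate 3 it made up 6.87 of 24.6 RPKM, and in control replicate 3 it made up 1.92 of 20.5 RPKM. Without it D391N replicate 3 was below control replicate 3, so the CNOT6L sums of the groups overlapped. The groups of this transcript did not overlap. Every control had under 3 equivalent reads (at most 2.27) and the D391N libraries went down to 2.47, so no bound on the fold is given (fitted log2 fold change 2.29, which depends on the pseudocount, limma adjusted p = 0.181). CNOT6L-207 took 27.6% and CNOT6L-206 took 12.6%. Of the windows of CNOT6L, 6.72% also occur in transcripts of other genes, the largest such share among the members.

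Within each nuclease class the paralogs compete for the same place in the complex, so their ratio was compared between conditions. The ratio of CNOT7 to CNOT8 was 1.75, 1.55 and 1.72 in D391N and 1.12, 1.27 and 0.902 in control libraries. Every D391N library had a higher ratio than every control, and the log2 difference was 0.62. A two-sided exact permutation test gave p = 0.10, the smallest value that 3 libraries against 3 can give, and 0.20 after adjustment over the 2 pairs tested. These ratios include CNOT7-212. Without it in the CNOT7 sum, D391N replicate 2 had a lower ratio than control replicate 2, so the groups overlapped. The ratio of CNOT6L to CNOT6 was 0.491, 0.562 and 0.699 in D391N and 0.530, 0.426 and 0.677 in control libraries, with full overlap (log2 difference 0.11, exact p = 0.70, adjusted 0.70).

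**Figure D3:**
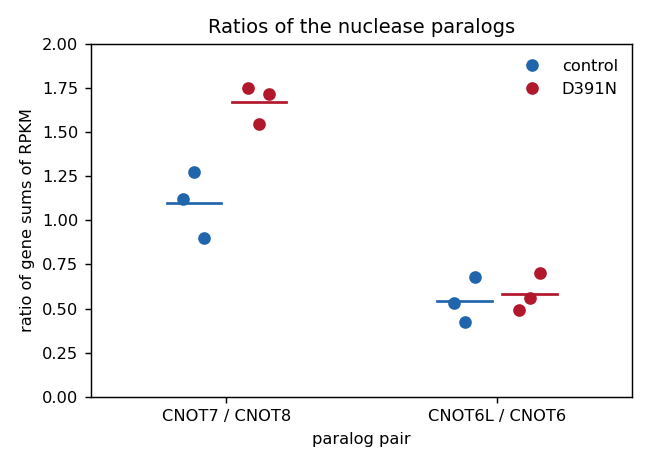
Ratios of gene sums of RPKM for the paralog pairs CNOT7 to CNOT8 and CNOT6L to CNOT6, with 1 point per library and a line at the mean of each condition. The CNOT7 to CNOT8 ratio lies at 1.55 to 1.75 in D391N and 0.902 to 1.27 in control libraries, and the CNOT6L to CNOT6 ratios overlap. The CNOT7 sums include the short fragment CNOT7-212, without which the CNOT7 to CNOT8 ratios overlap as well.

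The size of the gene-level differences depended on how transcripts were summed. A sum of RPKM gives short transcripts as much weight as long ones. When each RPKM was multiplied by the transcript length before summing, an alternative chosen after seeing the data that approximates a sum of reads, the log2 fold change was 0.45 for CNOT7 (limma adjusted p = 0.247), 0.08 for CNOT6L (0.699) and 0.02 for CNOT1 (0.937). None of the 10 members passed on this scale either. With only the reference transcript of each gene it was 0.13 for CNOT7, 0.05 for CNOT1 and -0.014 for CNOT6L. With only transcripts annotated as protein coding it was 0.71 for CNOT7 (adjusted p = 0.055), 0.08 for CNOT1 and -0.014 for CNOT6L. This sum still includes CNOT7-212, and the fit called 593 of 11351 genes. The sign for CNOT6L turned with reference transcripts and with protein coding ones. Scaling moved the members too. When the libraries were shifted to the same median, the median of all genes went from -0.090 to 0.13, the median of the members was 0.38, and CNOT9 and CNOT10 turned positive.

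**Figure D4:**
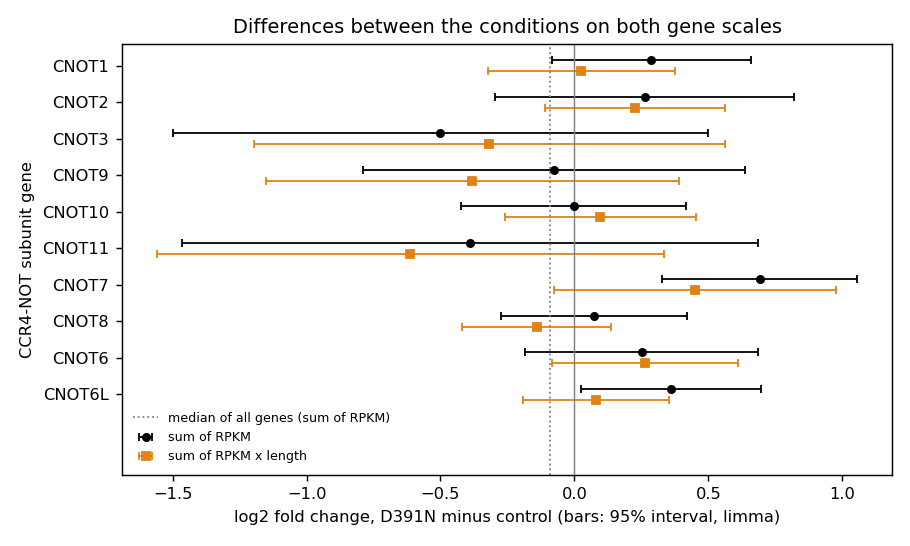
Log2 fold change (D391N minus control) of the 10 genes with 95% intervals from limma, for sums of RPKM (black circles) and for sums of RPKM multiplied by length (orange squares), with the median of all genes on the RPKM scale as a dotted line. On the RPKM scale the intervals of CNOT7 (0.33 to 1.06) and CNOT6L (0.03 to 0.70) lie above 0, and on the scale with length the interval of each of the 10 genes includes 0.

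Of the 158 member transcripts, 97 had a mean of at least 1 RPKM and were tested, and 61 were not. A transcript that is low in 1 condition passed this level only through the other, so counts over the 97 describe the transcripts that passed. None passed an adjusted p of 0.05 in limma, which 0.0604% of all tested transcripts did. At an unadjusted p under 0.05 stood 17, with 7 higher and 10 lower in D391N, or 17.5% beside 17.6% of all transcripts. The groups did not overlap for 10 transcripts that were higher, beside 10.1% of all, and for 12 that were lower, beside 15.6% of all. The median log2 fold change was 0.05 against -0.072 over all transcripts. Of the isoform shares, 0 of 97 passed (0.0133% of all) and 17 stood at an unadjusted p under 0.05, beside 15.6% of all shares. At transcript level these shares were near the background.

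The spread of these isoforms was larger among D391N than among control libraries. The median SD over 3 libraries of log2 RPKM was 0.82 in D391N and 0.38 in control for the member transcripts, against 0.59 and 0.31 for all transcripts. It was only 0.20 and 0.15 for the member gene sums. Within the D391N group 32 member transcripts spanned more than 4-fold, and within the control group 8 did. Without D391N replicate 1, 11 of the 97 transcripts and 13 of the 97 shares passed, beside 9.07% of all transcripts and 7.52% of all shares in the same fits, and 1 of 10 genes.

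**Figure D5:**
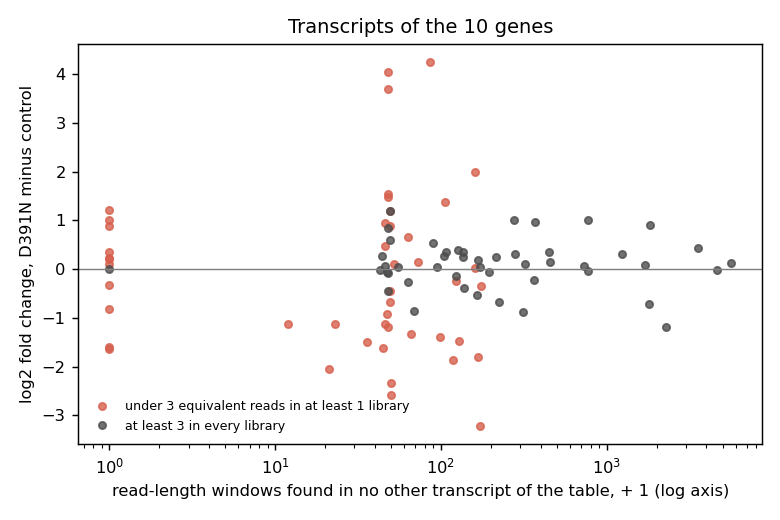
Log2 fold change (D391N minus control) of the tested member transcripts against the number of read-length windows of 50 bases that occur in no other transcript, plus 1 (log axis), in red for transcripts with under 3 equivalent reads in at least 1 library. The 8 transcripts with over 1000 windows of their own lie between -1.20 and 0.91.

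Many of the isoforms share most of their sequence with others. Of the 93 tested transcripts with a sequence, 41 had at most 50 windows of their own and 12 had none. Log2 fold changes over 1 in size were found for 19 of the 41 and for 11 of the other 52. By annotation, 45 of the 97 were protein coding with a median log2 fold change of 0.04, 19 were transcripts of coding genes without a defined frame (0.21), 18 were retained introns (0.04) and 11 were substrates of nonsense-mediated decay (-0.07).

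The other genes of the pathway were read from lists of deadenylases with poly(A) binding proteins and of partners and recruiters of CCR4-NOT. Of the 13 deadenylases and poly(A) binding proteins, 12 were tested, none rose or fell in limma, and 1 stood at an unadjusted p under 0.05, beside 22.7% of all genes. Their median log2 fold change was 0.04. The largest positive value was 0.46 for PARN, the poly(A)-specific ribonuclease, at 109, 165 and 127 RPKM in D391N and 92.1, 107 and 88.9 RPKM in control libraries (adjusted p = 0.221). The most negative was -0.49 for ANGEL1, a relative of CNOT6, at 7.22, 8.57 and 8.75 RPKM in D391N and 10.8, 12.2 and 11.4 RPKM in control libraries (adjusted p = 0.145). In both genes the groups did not overlap, as for 10.5% of all genes upward and 20.7% downward.

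Of the 29 partners and recruiters, 26 were tested, none rose or fell in limma, and 1, ZFP36L2 (named after its value was seen), stood at an unadjusted p under 0.05, beside 22.7% of all genes. The median log2 fold change was 0.09. It was 0.61 for TOB2, an adaptor that binds CNOT7 and CNOT8, at 16.2, 44.02 and 23.2 RPKM in D391N and 17.1, 15.7 and 17.2 RPKM in control libraries, with overlap (adjusted p = 0.332). It was -1.0003 for ZFP36, which recruits the complex to AU-rich mRNAs, at 1.07, 0.469 and 1.07 RPKM in D391N and 1.87, 1.12 and 2.49 RPKM in control libraries, without overlap, as for 20.7% of all genes downward (adjusted p = 0.229).

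Over the 6 libraries, the mean of the centred log2 levels of the 10 members was highest in D391N replicate 3 (0.16) and D391N replicate 1 (0.11) and lowest in D391N replicate 2 (-0.12) and control replicate 3 (-0.14), so it did not separate the conditions. Among 8614 genes with a mean of at least 10 RPKM, those most like this profile by Pearson's r over 6 libraries were ENSG00000273802 (0.991), LSM5 (0.988), CTSV (0.987), ELP3 (0.987) and RNVU1-15 (0.983). The libraries share their processing and differ in depth, and these values are a description only.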

How the data were processed

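RNA-seq of 3 D391N and 3 control libraries was used. Per the paper's methods, the authors sequenced rRNA-depleted RNA, used cutadapt for trimming, Segemehl for alignment to Ensembl transcripts of hg38 and BitSeq for quantification. For each transcript the authors deposited a natural log RPKM (the mean of BitSeq's posterior) together with its variance. BitSeq divides reads among transcripts that share sequence, so isoform estimates depend on each other. The study's own differential test needs posterior samples and was not repeated.

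Natural logs were exponentiated to RPKM, summed per gene and changed to log2(RPKM + 0.1), which understates the change of low features. Features with a mean of at least 1 RPKM, 20714 genes and 54671 transcripts, were tested with limma 3.58.1 (empirical Bayes with trend, R 4.3.3), and 45095 shares of transcripts in their gene likewise, with Benjamini-Hochberg adjustment over all of them and calls at adjusted p under 0.05. Paralog ratios were tested by a two-sided exact permutation test (scipy 1.17.1). Python 3.11.15 with numpy 2.4.6 and pandas 2.3.3 made the tables, and matplotlib 3.10.9 the plots. Read totals were not used. Equivalent reads were obtained from the posterior variance and cover counting and assignment error only. The level listed for 26074 transcripts that had no reads gave the relative depth. The gene fit was tested on simulated data. Symbols were found for 88.2% of gene identifiers, and 152 of the 158 member transcripts were matched by identifier to a GENCODE annotation lifted to GRCh37, used for names, biotypes, lengths and sequences. Gene positions are RefSeq's for GRCh38.p14.

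The members, lists and tests were chosen with earlier results of these data known. The genes named are the members, DIS3L2, member transcripts with a mean share of at least 10%, the genes with the largest positive and negative difference of each list, and the 5 genes most like the members. Other transcripts and the genes ZFP36L2, KRT8, VIM and LIN28B were chosen after their values were seen. Same-numbered libraries had correlations of 0.070, 0.22 and -0.11 between their deviations from the group means, so replicate numbers were not taken to pair libraries.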

Additional observations from a re-analysis of the deposited data

How the results depend on the processing

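No member gene, transcript or share was called under other pseudocounts, filters on low values, scalings, limma without trend and the sums tried. The filters and sums changed which members were tested. Besides single libraries left out there was 1 exception: with library weights 1 share passed, that of CNOT1-218. With each library left out in turn, 0 to 1 of 10 genes, 0 to 11 of 97 transcripts and 0 to 13 of 97 shares were called. Each count above 0 came from the fits without D391N replicate 1. Over all features those fits called 2261 genes, 4961 transcripts and 3392 shares, against 29, 33 and 6 with all libraries and at most 11, 17 and 0 without any other library. Calls over all genes were 593 for sums of protein coding transcripts, 647 on the scale with length, 14 to 71 with other pseudocounts, scalings, or library weights, and 6 with a mean of at least 5 RPKM. With all libraries kept, the other alternatives called 7 to 142 transcripts and 0 to 192 shares over all features. A replicate block left 2 genes, 7 transcripts and 0 shares called over all features and no member, although same-numbered libraries were not shown to pair. The cause of these shifts was not tested.

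The members' median of 0.16 was 0.38 with median centring, 0.053 on the scale with length and -0.0090 with reference transcripts, where 9 members were measured. Against their reported signs, with reference transcripts the log2 fold change was 0.0067 for CNOT3, -0.0090 for CNOT6, -0.014 for CNOT6L, -0.82 for CNOT8, 0.88 for CNOT10, -1.02 for PARN and -0.30 for TOB2. On the scale with length it was -0.14 for CNOT8 and 0.10 for CNOT10. With protein coding transcripts it was -0.014 for CNOT6L and 0.11 for CNOT10, and the ratio of CNOT6L to CNOT6 differed by -0.20. With tested transcripts only CNOT10 was at 0.10. With median centring it was 0.14 for CNOT9, 0.22 for CNOT10, 0.062 for CNOT6-201 and 0.057 for CNOT6L-201. With quantile normalization it was -0.055 for CNOT3-201 and -0.020 for CNOT1-201, and with library weights 0.0062 for CNOT6-201 and 0.035 for CNOT6L-201. With each library left out, the range was -0.40 to 0.21 for CNOT9, -0.13 to 0.10 for CNOT10, -0.67 to 0.091 for CNOT11, -0.57 to 0.40 for CNOT3-201, -0.23 to 0.38 for CNOT6-201, -0.029 to 0.19 for CNOT1-201, -0.21 to 0.43 for CNOT7-201, -0.31 to 0.47 for CNOT9-204, -0.099 to 0.056 for CNOT6L-201 and -0.052 to 0.28 for the ratio of CNOT6L to CNOT6. The difference for CNOT7 stayed positive under every alternative, from 0.13 to 0.91.

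Of the 97 tested transcripts, 49 had under 3 equivalent reads in at least 1 library, so the size of their fitted differences is uncertain. Of these, 13 stood at an unadjusted limma p under 0.05.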
